A study of Rattus norvegicus with 6 samples.

Results

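The circadian clock genes Clock, Npas2, Per1, Per2, Per3, Cry1, Nr1d1, Nr1d2 and Bhlhe40, with the PAR-bZIP output gene Dbp, were followed in rat liver after a single feeding period on a low-protein diet. They were taken as every probe set, a group of array probes for 1 transcript, whose platform annotation gave exactly 1 gene symbol that was one of these names, which gave 17 probe sets of 10 genes among 31042 probe sets tested. The arrays came from livers of male Wistar rats, labelled 6 weeks old and about 150 g, with 3 arrays from rats given a low-protein diet (5P) and 3 from rats given a control diet (15P) of equal energy content. For 4 days beforehand every rat had received the control diet between 10:00 and 18:00 only, with lights on from 06:00 to 18:00. On the last cycle each ate its own diet for 8 hours, and the livers were collected after a further 16 hours without food in both groups. From these labels the collection fell at about 10:00, 4 hours after lights on, and no other time of day was sampled, so the values are levels at 1 time and say nothing of amplitude or phase. Whether every array stands for its own animal is not said in so many words, so p-values here reflect the spread among these arrays, which may be technical.

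The clock runs in nearly every cell, hepatocytes included, as a transcriptional loop. CLOCK or its close relative NPAS2 pairs with BMAL1 at E-box sequences and switches on the Per, Cry, Nr1d and Dbp genes. PER and CRY proteins then shut off that activation, and the nuclear receptors REV-ERB alpha and beta, encoded by Nr1d1 and Nr1d2, repress the activator genes. DBP and its relatives TEF and HLF, the PAR-bZIP factors, bind D-box sequences and carry the rhythm to metabolic genes. In rodents, food confined to part of the day resets the clock of the liver, and both groups ate in the same window.

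None of the 17 probe sets passed the test for a difference between the diets after adjustment over all probe sets (limma, Benjamini-Hochberg, adjusted p from 0.163 to 0.881), where 0.132% of all probe sets passed at an adjusted p under 0.05 (0.0354% higher and 0.0966% lower in low-protein livers). The values furthest apart were those of the repressor genes Bhlhe40, Per3 (1378745_at) and Nr1d1. Their log2 fold changes were -0.55, -0.50 and -0.42 (low protein minus control). The other Per3 probe set, 1388239_at, which lay below the median of mean intensity, had 0.19. The activator genes Clock and Npas2 and the repressor genes Per1 and Cry1 lay within 0.14 of 0. At an unadjusted p under 0.05 there were 3 of the 17, all lower in low-protein livers, which is 17.6% of them, against 7.58% of all probe sets in that direction, 7.83% in the other and 15.4% in either. The diets did not overlap in 4 of the 17 probe sets, 3 lower and 1 higher, which is 23.5%, close to the 21.6% of all probe sets; 9.12% of all probe sets did not overlap and were lower. The median log2 fold change was -0.05 over the members, with 10 of 17 lower, and 0.03 over all probe sets, with 41.9% lower. Intensity bears on these comparisons. Of the 12 member probe sets above the median of mean intensity, 9 were lower, with a median of -0.11, and 3 of the 12 did not overlap, all lower (25%). Among all probe sets above that median 51.1% were lower, the median was -0.01, 14.7% did not overlap and were lower, and 26.9% did not overlap in either direction. At an unadjusted p under 0.05 by limma there were also 3 of the 12 (25%), all lower. Among all probe sets above that median 12.4% were so in that direction and 21.1% in either.

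**Figure D1:**
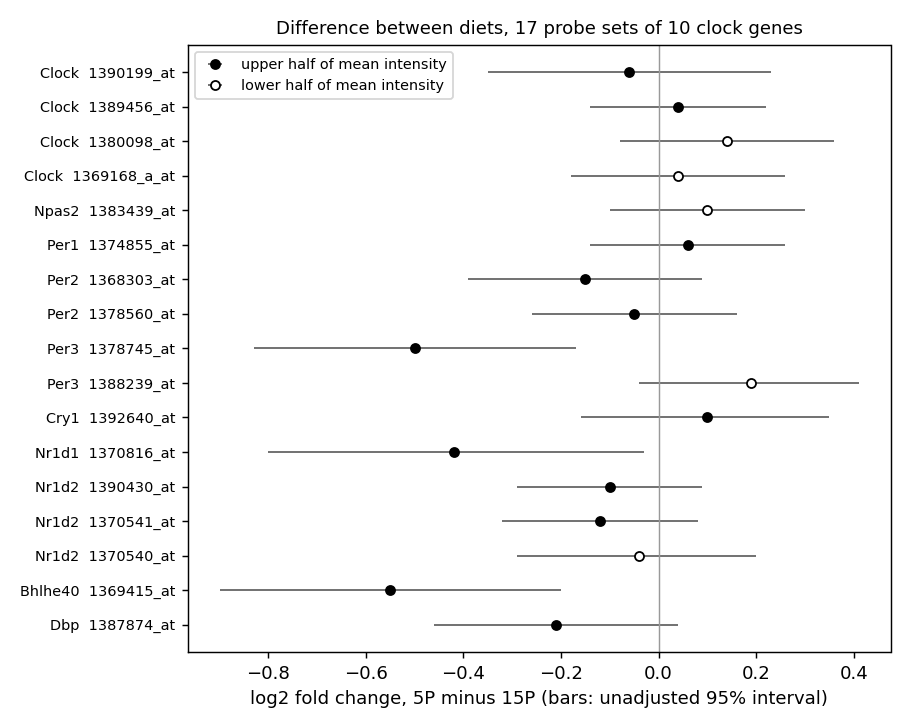
Log2 fold change (x axis, low protein minus control) of the 17 probe sets of 10 clock genes (y axis, activators at the top, Dbp at the bottom), with bars for the unadjusted 95% interval; filled points lie above the median of mean intensity over all probe sets and open points below it. The intervals of Bhlhe40, of the brighter Per3 probe set and of Nr1d1 lie below 0, and the other 14 span it.

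Upstream sequences are shown for the members whose windows held a searched motif, so that the matches can be seen beside the values. The start-site windows were those of RefSeq (GRCr8), 250 bases before to 50 after each start, and 9 of the 10 genes had at least 1, 11 windows in all. The letters searched on both strands were CACGTG (E-box, which reads the same on both strands), CACGTT (E'-box) and TTANGTAA (D-box), plus the RORE, the element of the nuclear receptors, by name; the E-box and E'-box share 5 letters, but no match of one is a match of the other. An E-box was found in windows of 2 member genes, Bhlhe40 and Nr1d1, and occurred in 6.42% of all 33469 windows. The E'-box occurred in 4.83% of all windows, the D-box in 2.24% and the RORE in 0.356%. The windows of 6 member genes held none of these letters, and a match or its lack is a description of these windows only. In the stretches below, which end just before the first base of the gene, capitals mark the matches: the E-box of Bhlhe40, whose first base lies at -220 from the start site, the E'-box of Nr1d1 at -174, which reads on the minus strand relative to the gene, and the D-box of Per2, at -192 from a start site 76 bases inside the gene. The Per2 window also held an E'-box at -62, inside the gene and past the stretch printed.
Bhlhe40, chr4:143174200-143174449, plus strand: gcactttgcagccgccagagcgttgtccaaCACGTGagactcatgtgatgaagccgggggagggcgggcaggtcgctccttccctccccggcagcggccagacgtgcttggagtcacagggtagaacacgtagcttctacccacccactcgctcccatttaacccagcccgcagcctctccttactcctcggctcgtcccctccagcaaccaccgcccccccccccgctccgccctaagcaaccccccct
Nr1d1, chr10:84231813-84232062, minus strand: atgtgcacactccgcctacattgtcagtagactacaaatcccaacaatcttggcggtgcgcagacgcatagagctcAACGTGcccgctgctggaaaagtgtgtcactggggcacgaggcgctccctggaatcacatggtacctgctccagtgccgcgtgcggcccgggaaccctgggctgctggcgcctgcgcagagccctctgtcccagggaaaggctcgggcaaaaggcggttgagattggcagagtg
Per2, chr9:99497070-99497243, minus strand: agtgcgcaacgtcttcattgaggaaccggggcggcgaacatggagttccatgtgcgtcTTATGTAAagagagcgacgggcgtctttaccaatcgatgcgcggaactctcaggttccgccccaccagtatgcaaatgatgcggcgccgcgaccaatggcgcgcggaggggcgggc
The E-box of Nr1d1 lay in the window of its second start site, 2358 bases into the gene, and is shown with its neighbours in 30 bases.
Nr1d1, chr10:84229628-84229657, minus strand: tgtcagctcccaCACGTGtctggggatcct

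Before the members are taken in turn, the arrays as a whole set the frame. At an adjusted p under 0.05, 41 probe sets passed, 11 higher and 30 lower in low-protein livers in the deposited scaling. Median centring gave 13 higher and 65 lower, and 75th-percentile centring gave 24 higher and 35 lower. On the first principal component the low-protein arrays scored 17.34 to 22.59, and the controls scored -26.91, -22.45 and, for replicate 3, which lay away from its group, -10.11. The labelled tissue was borne out by 7 of 7 measured hepatocyte markers, whose brightest probe sets all lay at or above the 99.8th percentile of mean intensity. Dimmer probe sets of Fgb lay at the 30.6th and 11.5th percentiles, and a dimmer Apob probe set at the 53.6th. Red blood cell markers summed to 4030 to 4294 on the low-protein arrays and 2845 to 3100 on the control arrays. Of 6 listed genes 4 were measured and 3 of 4 were higher, with Slc4a1 and Epb42 below the median intensity. Most of the sum was Hbb, at 3932 to 4180 on the low-protein arrays against 2758 to 3015 on the controls. Alas2 had a log2 fold change of 0.43, and Slc4a1 and Epb42, whose diets overlapped, had 0.14 and -0.06. The part of these markers in the values below was not tested. The summed markers of Kupffer cells, endothelium, stellate cells, bile duct cells, lymphocytes and adipocytes overlapped between the diets. Such sums rest mostly on their brightest genes, and no single marker passed. Of 5 bile duct genes measured 1 was higher, and Epcam and Krt19 had log2 fold changes of -0.55 and -0.39 (adjusted p = 0.315 and 0.227 by limma). Of 4 adipocyte genes measured 3 were higher, among them the dim Adipoq and Lep, whose diets did not overlap. Over all probe sets 12.5% did not overlap and were higher, and 41.9% had a log2 fold change below 0. In tissue RNA, fewer cells of a type and less RNA per cell cannot be told apart.

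Clock, the DNA-binding partner of BMAL1, was measured by 4 probe sets that differed little between the diets. The brightest, 1390199_at, read 132, 126 and 102 (RMA intensity on a linear scale, a background-corrected and between-array normalized summary of the probes of a probe set) on low-protein replicates 1, 2 and 3, against 129, 135 and 109 on control replicates 1, 2 and 3. Replicate 3 was the lowest of its diet in both groups, and the groups overlapped throughout. The log2 fold change was -0.06 (95% interval -0.35 to 0.23, adjusted p = 0.869), and the probe set 1389456_at, with 77.6, 78.0 and 76.1 in low-protein livers against 73.9, 76.6 and 74.9 in control livers, had 0.04 (-0.14 to 0.22). The other Clock probe sets, 1380098_at and 1369168_a_at, lay below the median of mean intensity, where array signal is weakest, and had 0.14 and 0.04. The sign of the brightest probe set therefore was not shared by the other 3, and the mean over the 4 was 0.04.

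Npas2, which can take the place of CLOCK, was covered by 1 dim probe set at the 24.5th percentile of mean intensity. It read 13.1, 13.8 and 14.5 in low-protein livers against 12.7, 12.5 and 13.5 in control livers. The groups overlapped only through low-protein replicate 1 and control replicate 3, and the log2 fold change was 0.10 (SE 0.087, 95% interval -0.10 to 0.30). Bmal1 (Arntl in older annotation), the common partner of both and not itself among the 10 members, also lay low, at the 33.8th percentile. Its values were 17.2, 17.1 and 20.6 in low-protein livers against 18.7, 16.3 and 19.0 in control livers, a log2 fold change of 0.02 (SE 0.111). Its sign turned in 4 alternative settings. For these 3 activator genes no difference was detectable at the signal of these arrays, and the intervals of the brighter Clock probe sets reach down to -0.35 and up to 0.23 on the log2 scale.

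Per1, a repressor that is also switched on directly by hormones and other acute signals, had nearly equal values in both diets, although its low-protein arrays lay closer together than its control arrays. The probe set read 268, 267 and 271 in low-protein livers against 244, 279.9 and 250.1 in control livers. The SD on the log2 scale was 0.01 over the 3 low-protein arrays and 0.11 over the 3 control arrays, a difference in spread that was not tested. The log2 fold change was 0.06 (95% interval -0.14 to 0.26, adjusted p = 0.789).

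Per2, a second member of the same repressor family, had lower means in low-protein livers on both probe sets, with intervals that span 0. The brighter probe set, 1368303_at, read 384, 459 and 383 in low-protein livers against 419.6, 469 and 468 in control livers. Low-protein replicate 2 lay among the controls, and replicates 1 and 3 lay below all 3 of them. The log2 fold change was -0.15 (SE 0.105, 95% interval -0.39 to 0.09), and the second probe set, 1378560_at, with 124, 118 and 129 against 126, 120.3 and 137 in control livers, had -0.05 (SE 0.0909). That second value turned sign in 3 alternative settings.

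Per3, the least essential of the family to rhythm in the mouse, gave opposite readings on its 2 probe sets. On 1378745_at it had 87.9, 112 and 84.4 in low-protein livers, against 154, 134 and 114 in control livers. All 3 low-protein arrays lay below all 3 control arrays, but low-protein replicate 2 and control replicate 3 were almost level. The log2 means were 6.55 ± 0.22 in low-protein livers and 7.06 ± 0.21 in control livers (SD, n = 3 each), a log2 fold change of -0.50 (SE 0.145) or 0.706 times the control level (95% interval 0.561 to 0.888; limma, unadjusted p = 0.00789, adjusted p = 0.174). On the dim probe set 1388239_at, at the 21.3th percentile of mean intensity, it had 13.0, 12.5 and 12.9 in low-protein livers, against 12.0, 11.9 and 10.0 in control livers. Here the groups again did not overlap, in the other direction, and the log2 difference was 0.19 (SE 0.0982, adjusted p = 0.407 by limma). Dim probe sets leaned that way in general. Of the 15521 probe sets below the median of mean intensity, 32.7% were lower, with a median log2 fold change of 0.06. Among them 1967 did not overlap and were higher, and 556 did not overlap and were lower. The part of that lean in the dim Per3 reading was not tested. With the mean of both probe sets standing for the gene, the log2 fold change was -0.16 (adjusted p = 0.495).

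Cry1, a cryptochrome and a strong repressor of the loop, had values that overlapped between the diets. It read 162, 206 and 184 in low-protein livers against 184, 171 and 159.9 in control livers. The highest low-protein array, replicate 2, stood above all others, and the lowest, replicate 1, stood among the controls. The log2 fold change was 0.10 (SE 0.112, 95% interval -0.16 to 0.35, adjusted p = 0.726) and was 0.011 without low-protein replicate 2. Cry2, the other cryptochrome gene, which is not a member, had 0.08 (SE 0.131) on its brightest probe set and 0.21 (SE 0.119) on its other.

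**Figure D2:**
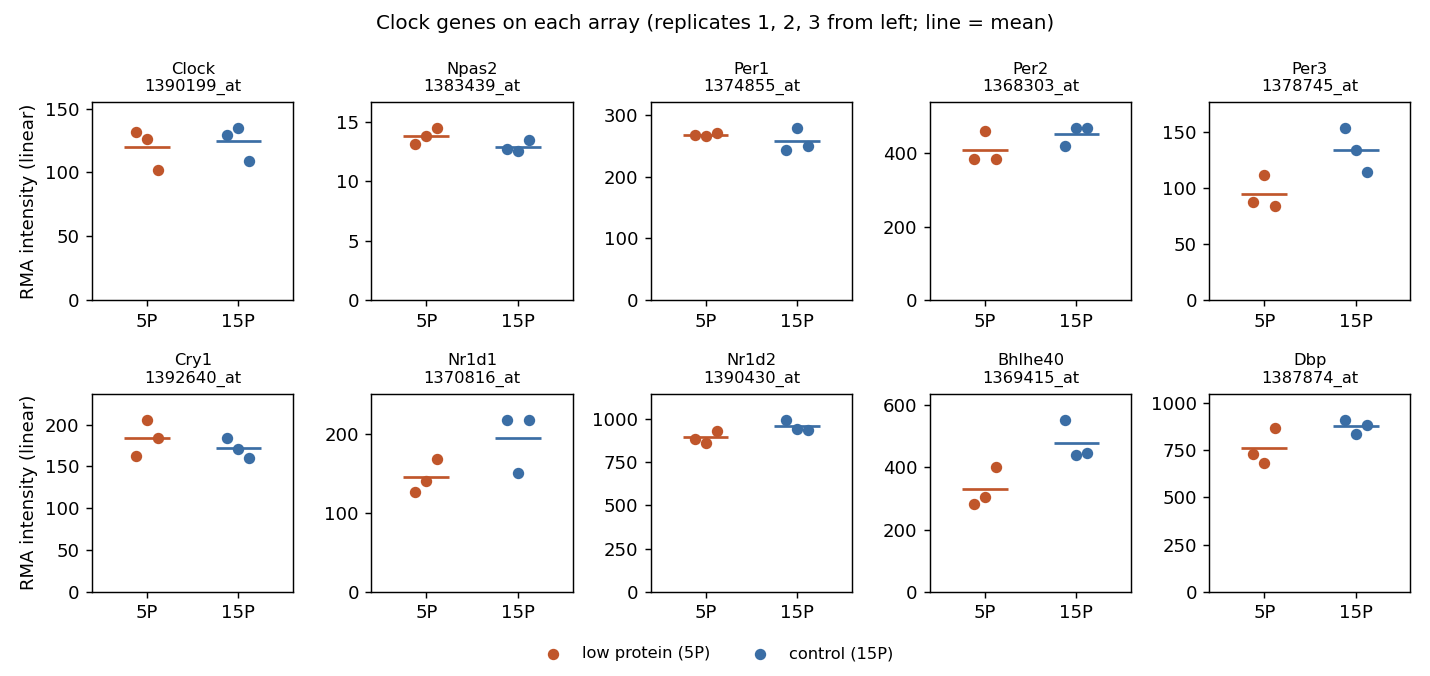
RMA intensity on a linear scale (y axis, from 0) of the brightest probe set of each of the 10 clock genes on the 3 low-protein (5P, left) and 3 control (15P, right) arrays; points are arrays, replicates 1, 2 and 3 from left, and lines are means. Only Per3, Nr1d2 and Bhlhe40 have all 3 low-protein points below all 3 control points, and the gap for Nr1d2 is small (930.0 against 938).

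Nr1d1, which encodes the heme-binding repressor REV-ERB alpha, had its lowest values on 2 low-protein arrays, with overlap through 1 control array. It read 127, 141 and 169 in low-protein livers, against 218, 151 and 219 in control livers. Control replicate 2 lay between low-protein replicates 2 and 3, while the other controls lay above all low-protein arrays. The log2 means were 7.18 ± 0.21 in low-protein livers and 7.59 ± 0.30 in control livers (SD, n = 3 each), and the log2 fold change was -0.42 (SE 0.167), or 0.750 times the control level (95% interval 0.575 to 0.977). The unadjusted p was 0.0363 and the adjusted p = 0.288 by limma. Leaving out control replicate 2 gave -0.59 (adjusted p = 0.203), and leaving out low-protein replicate 1 gave -0.32 (adjusted p = 0.508).

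Nr1d2, which encodes REV-ERB beta, was lower on all 3 of its probe sets by small amounts. The brightest, 1390430_at, read 887, 864 and 930.0 in low-protein livers, against 997, 941 and 938 in control livers. The low-protein arrays lay below the controls, though the top low-protein array and the lowest control were nearly equal. The second, 1370541_at, read 710.4, 734 and 791 against 805, 836 and 781 in control livers, where low-protein replicate 3 exceeded control replicate 3. The log2 fold changes were -0.10 (95% interval -0.29 to 0.09) and -0.12 (-0.32 to 0.08), with -0.04 on the dim probe set 1370540_at. The spread within a diet was small on the 2 bright probe sets (SD 0.05 to 0.08), so their intervals reach no lower than -0.32. The difference between the effects on Nr1d1 and Nr1d2 was not tested.

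Bhlhe40, also called Dec1, encodes a basic helix-loop-helix repressor that competes for E-boxes and responds to feeding, hormones and low oxygen as well as to the clock. Among the members it had the smallest unadjusted p. Its probe set read 284, 304 and 402 in low-protein livers, against 554, 439 and 445 in control livers. All low-protein arrays lay below all controls, and low-protein replicate 3 lay nearest to them. The log2 means were 8.35 ± 0.27 in low-protein livers and 8.90 ± 0.19 in control livers (SD, n = 3 each). The log2 fold change was -0.55 (SE 0.152), or 31.6% lower (ratio 0.684, 95% interval 0.537 to 0.870; limma, unadjusted p = 0.00636, adjusted p = 0.163), and 1210 other probe sets had a smaller p. It ran from -0.70 without low-protein replicate 3 to -0.44 without control replicate 1. Bhlhe41 (Dec2), its close relative outside the 10 members, was dim (36.7th percentile) and had -0.32 (SE 0.154, adjusted p = 0.361), from 17.3, 15.6 and 21.4 in low-protein livers and 26.9, 19.5 and 21.6 in control livers, which overlap.

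The profiles most like that of Bhlhe40 over the 6 arrays were sought among the 20809 named probe sets of other genes, by the root mean square difference between log2 values centred on their own means. The 5 closest were Ell (0.067), Rsrc2 (0.072), Nup37 (0.080), Ldhd (0.084) and Fgr (0.089), where the middle candidate had 0.362. Ell, whose product helps RNA polymerase II to elongate, read 232, 251 and 322 in low-protein livers against 431, 382 and 333 in control livers. All 5 share with Bhlhe40 the order in which low-protein replicate 3 is the highest of its diet and control replicate 1 the highest of the controls. The search chose them for likeness to that profile, so the shared order is no further result. The likeness is over 6 arrays only and was found by searching all named probe sets.

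Dbp, the PAR-bZIP factor whose gene is a direct CLOCK and BMAL1 target, was lower on 2 of the 3 low-protein arrays. It read 730.4, 683 and 868 in low-protein livers, against 911, 832 and 881 in control livers. Low-protein replicate 3 lay among the controls, and the other low-protein arrays lay below all of them. The log2 means were 9.56 ± 0.18 in low-protein livers and 9.77 ± 0.07 in control livers (SD, n = 3 each), and the log2 fold change was -0.21 (SE 0.109, 95% interval -0.46 to 0.04, adjusted p = 0.402). Leaving out low-protein replicate 3 gave -0.31, and leaving out low-protein replicate 2 gave -0.13.

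The PAR-bZIP relatives of Dbp, which were not among the members, differed between their own probe sets. Tef, on its brightest probe set 1390819_at, had a log2 fold change of 0.03 (SE 0.123), with -0.25 on 1385374_at (249, 204 and 245 in low-protein livers against 280.3, 266 and 279.9 in control livers) and -0.30 on 1369919_at. Hlf, on its brightest probe set 1386641_at, had 0.17 (SE 0.199), with 914, 909 and 989 in low-protein livers against 580.4, 960.0 and 1036 in control livers. The first control array alone was low there, and without it the value was -0.090. On 1374709_at Hlf read 281, 316 and 298 against 164, 221 and 238 in control livers, without overlap, and its log2 difference was 0.54 (SE 0.142, adjusted p = 0.151); its remaining probe sets had 0.28 and -0.05. Nfil3, which encodes the repressor that competes with these factors at D-boxes, had -0.05 (SE 0.118), from 214, 219 and 182 in low-protein livers and 184, 228 and 223 in control livers, and its sign turned in 4 alternative settings.

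**Figure D3:**
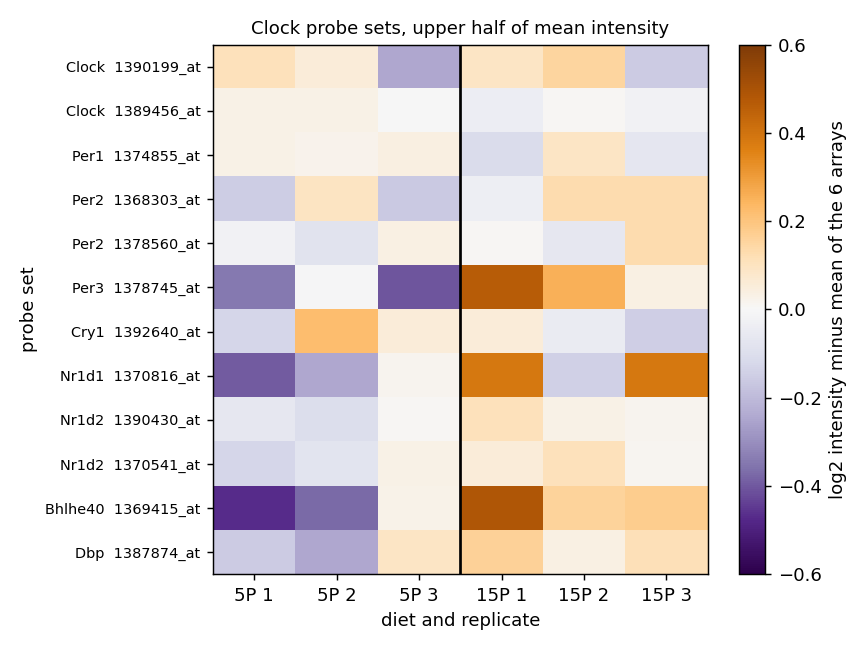
Log2 intensity minus the mean of the 6 arrays (colour, orange above and purple below) for the 12 clock probe sets above the median of mean intensity (rows), on low-protein (5P) replicates 1 to 3 and control (15P) replicates 1 to 3 (columns). Low-protein replicate 3 is the highest of its diet in 7 of the 12 rows, among them Nr1d1, both Nr1d2 probe sets, Bhlhe40 and Dbp.

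Across the arrays, the low values of several repressors and of Dbp lay on the same 2 low-protein arrays. Low-protein replicates 1 and 2 held the lowest value of all 6 arrays in 3 of the 12 brighter probe sets each, and low-protein replicate 3 in another 3, those of Clock (1390199_at), Per2 (1368303_at) and Per3 (1378745_at). For Nr1d1, the bright Nr1d2 probe sets, Bhlhe40 and Dbp low-protein replicate 3 was the nearest to the controls, whereas for Per3 (1378745_at) it was the furthest from them. The order of the low-protein arrays was thus not one and the same over the members. Without control replicate 3, the control that stood apart, Bhlhe40 had -0.60, Per3 -0.61, Nr1d1 -0.33 and Dbp -0.20 on the log2 scale, and none of them passed (adjusted p = 0.174, 0.13, 0.403 and 0.453).

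Around the members, 4 lists of clock-related genes had no probe set past the threshold (limma, adjusted p under 0.05). The other core clock genes had 18 probe sets of 10 genes (12 listed), of which 2 were higher and 1 lower at an unadjusted p under 0.05 (16.7%, against 15.4% of all probe sets), and a median log2 fold change of 0.01. Beside the PAR-bZIP genes, the smallest p there belonged to Timeless, a replication fork protein with a debated place in the mammalian clock. It read 64.3, 76.9 and 47.2 in low-protein livers against 36.0, 52.2 and 41.1 in control livers, which overlap, and its log2 difference was 0.53 (SE 0.195, adjusted p = 0.253).

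Kinases, ubiquitin ligases and cofactors that modify clock proteins had 31 probe sets of 13 genes (16 listed), with 2 higher and 5 lower at an unadjusted p under 0.05 (22.6%, against 15.4% of all probe sets and 21.1% of those above the median intensity) and a median of -0.04. Prkaa2, a catalytic subunit of the energy-sensing kinase AMPK, which marks cryptochromes for breakdown, read 924, 829 and 793 in low-protein livers against 1066, 1004 and 1120 in control livers. The diets did not overlap, and the log2 fold change was -0.33 (SE 0.096, adjusted p = 0.178). The kinase genes Csnk1d, Csnk1e and Csnk2a1, whose products phosphorylate PER or BMAL1, had -0.05, 0.08 and 0.0027 on their brightest probe sets (SE 0.107, 0.107 and 0.0878). Dimmer probe sets of these genes had an unadjusted p under 0.05 by limma, in both directions. Csnk1d had 0.24 on 1370528_at and -0.23 on 1370819_at, and Csnk1e had 0.33 on 1369804_a_at. Csnk2a1 had -0.23 on 1387170_at and -0.38 on 1392650_at. None of these passed (adjusted p from 0.259 to 0.318).

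Clock-controlled outputs had 25 probe sets of 17 genes (18 listed), with 5 higher and 2 lower at an unadjusted p under 0.05, and a median of 0.08. That is 28% of them, against 15.4% of all probe sets and 21.1% of those above the median intensity, where 23 of the 25 lay. The diets did not overlap in 6 of the 25 (24%, against 21.6% of all probe sets). Nampt, the NAD salvage enzyme gene with E-boxes in its promoter, read 1647, 1738 and 1407 in low-protein livers against 2147, 2453 and 2002 in control livers. Its diets did not overlap on either probe set, and the log2 fold changes were -0.46 (SE 0.117, adjusted p = 0.141) and -0.60 (SE 0.164, adjusted p = 0.156). Wee1, a cell cycle kinase gene under E-box control, read 133, 126 and 126 against 82.7, 119.9 and 101 in control livers, differing by 0.36 on the log2 scale (SE 0.134, adjusted p = 0.26), with 0.44 on its other probe set. Gys2, the liver glycogen synthase gene, had 0.50 (SE 0.103, adjusted p = 0.0911), and Cpt1a, which admits fatty acids to mitochondria, had 0.36 and 0.55 (SE 0.104 and 0.12). Both are also governed by feeding, and their low-protein arrays all lay above the controls. The Cpt1a probe set at 0.55 passed without control replicate 3 (0.68, adjusted p = 0.048).

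**Figure D4:**
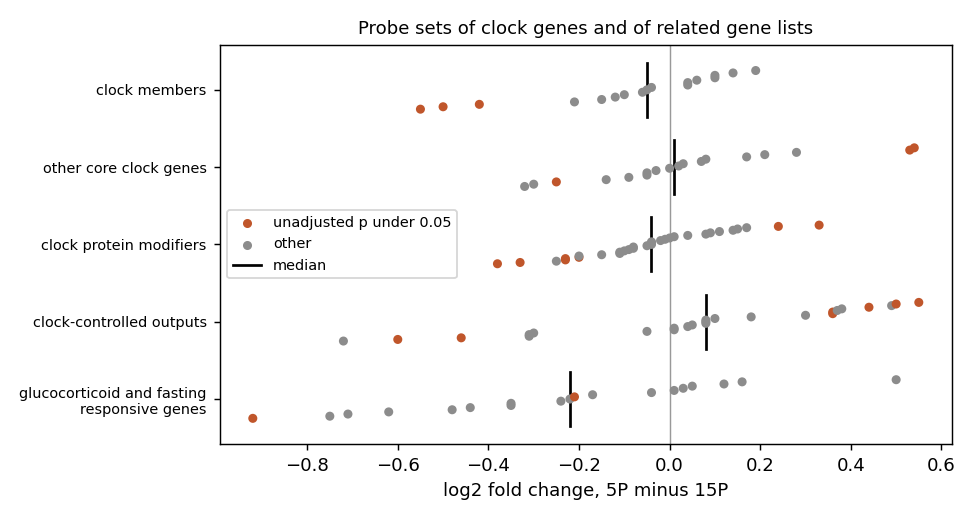
Log2 fold change (x axis, low protein minus control) of every probe set of the clock members and of the 4 lists of related genes (rows), with a vertical line at each median; coloured points had an unadjusted p under 0.05. No point passed at an adjusted p under 0.05, and the medians run from -0.22 for the glucocorticoid and fasting responsive genes to 0.08 for the clock-controlled outputs.

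Genes that respond to glucocorticoids and fasting, signals that also act on Per1 and on the clock of the liver, had 19 probe sets of 13 genes (15 listed). None was higher and 2 were lower at an unadjusted p under 0.05, and the median was -0.22. That is 10.5%, against 15.4% of all probe sets and 21.1% of those above the median intensity, where 18 of the 19 lay. In the lower direction alone the shares were 7.58% of all probe sets and 12.4% of those above the median intensity. Of the 19, 13 were lower and 6 higher, and the values given below are all from the lower side. Lower values made up 41.9% of all probe sets and 51.1% of those above the median intensity. Ppargc1a, the coactivator PGC-1 alpha, which also acts on clock genes, had -0.44 (SE 0.218, adjusted p = 0.378) on its brightest probe set and -0.92 (SE 0.153, adjusted p = 0.0652) on 1370089_at. There it read 39.4, 44.6 and 49.6 in low-protein livers against 86.9, 101 and 68.0 in control livers, without overlap. That probe set passed without control replicate 3 (-1.08, adjusted p = 0.0319) and with array weights (-1.0, adjusted p = 0.0443). Tdo2, the tryptophan dioxygenase gene, had -0.21 (SE 0.0932), the kinase gene Sgk1 -0.48 (SE 0.238), and Klf9, a glucocorticoid-induced factor of the liver clock, -0.22 (SE 0.133), none of which passed. Dusp1, a phosphatase gene named after its values were seen, read 1302, 1300 and 4723 in low-protein livers against 2883, 3651 and 3321 in controls. Low-protein replicate 3 was thus the highest of all arrays, and the diets overlapped. With all arrays the log2 fold change was -0.71 (SE 0.441, adjusted p = 0.479 by limma). Dusp1 passed when low-protein replicate 3 was left out (-1.33, adjusted p = 0.0273).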

How the data were processed

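Per the labels, biotin-labelled liver RNA was measured on 6 Affymetrix arrays. The table the authors deposited holds an intensity for each probe set on each array; RMA is the tool that the submitters' processing notes name, and its version is not given in the sources used here. The values ran from 3.61 to 21668 and were read as linear, so log2 was taken; 57 control probe sets were left out. RMA equalises arrays, which hides any shift common to most genes. Intensities of different probe sets do not compare genes. Arrays have no read depth, and their number limits the precision.

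Groups came from the sample titles. All 31042 probe sets were fitted with limma 3.58.1 in R 4.3.3 (lmFit, eBayes, two-sided, Benjamini-Hochberg over all probe sets, 8.38 total degrees of freedom). The procedure was also run on simulated data. The simulated effects were larger than any member difference, so that run does not show what differences of the size seen here could be detected. Fold changes are low protein minus control, and 95% intervals are unadjusted. The platform annotation can be old; the gene IDs of all 17 member probe sets matched the RefSeq table of GRCr8, which changed 0 of their symbols. The members, the lists and the tests were chosen with earlier results of these data known. The text names every member, the 4 genes of smallest p per list (shown by their brightest probe set), and Bmal1, Cry2, Tef, Hlf and Nfil3. Further probe sets of these, Dusp1 and the single marker genes were named after their values were seen. Same-numbered arrays did not deviate together (correlations -0.087, -0.027 and -0.102), so the replicate numbers were not used as pairs. Alternatives covered the prior variance, scaling, intensity filters, a pseudocount, array weights, the replicate block, each array left out, and a single value per gene. Plots used Python 3.11.15 with matplotlib 3.10.9.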

Additional observations from a re-analysis of the deposited data

How the results depend on the processing

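No member passed in the main setting or in any of 18 alternatives (smallest adjusted p = 0.121), 13 of the 17 member probe sets kept their sign in all of theirs, and 9 of 285 member values turned sign. The turned values, all log2, were those of Clock 1390199_at (0.0030 to 0.052 without control replicate 2 or low-protein replicate 3, from a range of -0.15 to 0.052 over left-out arrays, and 0.040 as the mean of its probe sets), Clock 1369168_a_at (-0.014 with quantile normalization), Per2 1378560_at (0.0012 with 75th-percentile centring, 0.0011 with quantile normalization, and -0.091 to 0.0057 over left-out arrays) and Nr1d2 1370540_at (0.0042 with 75th-percentile centring, -0.14 to 0.027 over left-out arrays). Of 19 other named genes 12 kept their sign. Bmal1 had -0.0080 with median centring, -0.036 with quantile normalization and -0.070 to 0.065 over left-out arrays. Nfil3 had 0.0019 with 75th-percentile centring, 0.0031 with quantile normalization and -0.14 to 0.035 over left-out arrays. Csnk2a1 had -0.025 with median centring and -0.039 to 0.029 over left-out arrays. Over left-out arrays Tef ran from -0.078 to 0.11, Hlf from -0.090 to 0.33, Cry2 from -0.039 to 0.19 and Csnk1d from -0.15 to 0.0025. Rescaling shifted the median of all probe sets by at most 0.0489. Over all probe sets the 41 calls became 103 with a robust prior variance, 78 with median centring, 102 with array weights, 0 with a pseudocount of 16, and 16 to 109 over left-out arrays. With the replicate block there were 6 calls, and the block changed no member's call. In the glucocorticoid and fasting list 1 probe set passed with array weights, and 0 to 1 over left-out arrays, as in the clock-controlled outputs. The cause of these shifts was not tested. Dim probe sets and 3 arrays a diet limit what differences could be seen.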
